A study of Dendrobium nobile with 12 samples.

Results

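In the orchid Dendrobium nobile, 235 of 31672 gene models (0.742%) had high transcript levels in root, labellum and petal and low levels in stem and leaf. They were chosen from FPKM values, which scale a model's count by its length and by the total of its library. The lowest of a model's 6 root, labellum and petal values had to be at least 5 FPKM and at least 4 times the highest of its 4 stem and leaf values. Bud did not enter the choice. The levels in root, labellum, petal, stem and leaf chose the members, so the gap between the 2 sets of organs is described below without a test.

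RNA-seq was made from 6 tissues of 1 genotype (chichai No. 1) grown in a greenhouse, with 2 libraries per tissue. Bud, labellum and petal came from 2-year seedlings, and root, stem and leaf from 1-year seedlings. The labels do not say what kind of bud was taken, nor whether both libraries of a tissue stem from different plants, so a p-value here measures the spread between libraries only and that spread may be technical. The organism label of every library names D. nobile, while the series' design text names D. officinale. Seedling age and organ cannot be told apart between bud, labellum and petal on one side and root, stem and leaf on the other.

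The labellum is the lip of an orchid flower, a modified petal. Labellum and petal serve to attract pollinators, and roots take up water and minerals. Stem and leaf form the vegetative shoot, and the fleshy stem of Dendrobium stores water and reserves. The identifiers are gene models numbered along the chromosomes and come with no gene name or product in the sources used here. No function is therefore stated for any model, and the tissue labels could not be checked against marker genes.

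The 235 models took a larger share of the counts of root, labellum and petal than of those of stem and leaf, which the rule had set, and bud lay in between. They took 2.73% and 2.49% of the counts of the bud libraries. In root they took 5.01% and 6.62%, in labellum 5.57% and 4.81%, and in petal 6.16% and 6.27%. In stem their share was 0.252% and 0.260%, and in leaf 0.268% and 0.273%. Both bud libraries were thus below all 6 root, labellum and petal libraries and above all 4 stem and leaf libraries in this share. In bulk tissue, fewer cells that express a model and less of its RNA per cell cannot be told apart.

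The level of the middle member showed the same order. The median over the 235 models was 55.0 and 51.7 FPKM in the bud libraries. It was 128 and 148 FPKM in root, 120 and 98.5 FPKM in labellum, and 113 and 127 FPKM in petal. In stem it was 4.20 and 4.18 FPKM, and in leaf 3.81 and 3.89 FPKM. Individual members spread over more than 3 powers of 10 in petal, between 5.23 and 9424 FPKM in replicate 1.

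**Figure D1:**
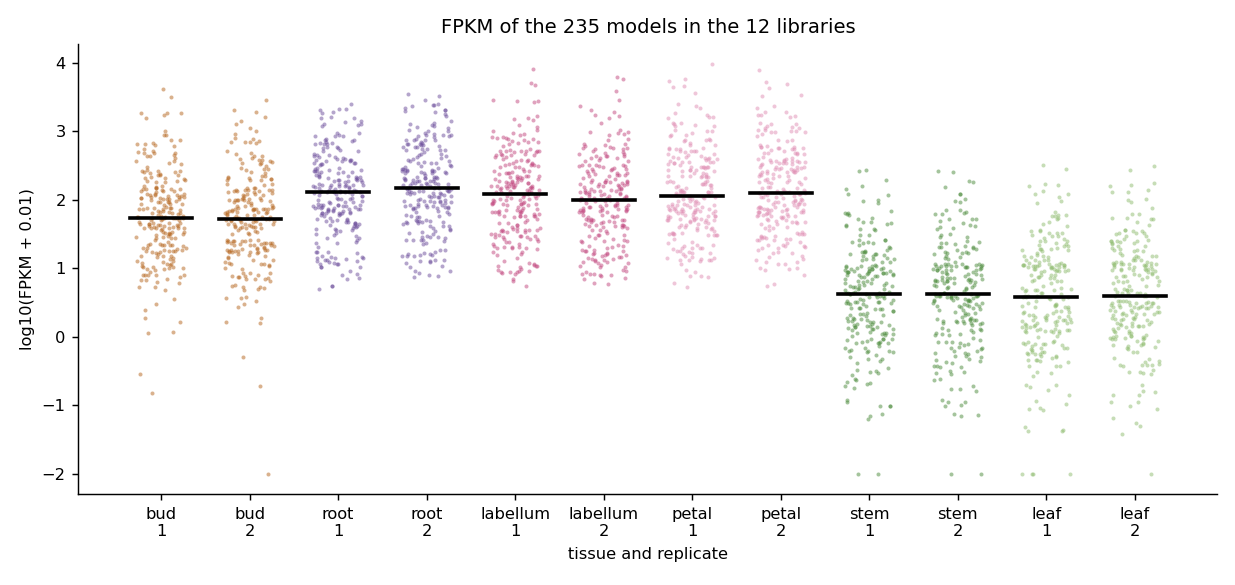
Each point is 1 of the 235 models in 1 library, on the scale log10(FPKM + 0.01), and each black line is the library's median; points at the bottom are values of 0. The bud medians (55.0 and 51.7 FPKM) sit under those of root, labellum and petal and far above those of stem and leaf (3.81 to 4.20 FPKM).

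Total counts per library ran between 27175842 and 32040196 outside root, and were 14165136 and 5289212 in the root libraries, the second being the shallowest. The lowest count of any member in that root library was 16. No member was without counts in stem and leaf as a whole, although 4 members had 0 counts in leaf replicate 1 and 2 members had 0 in each stem library. All 235 members passed the filter on low counts. Bud had the most members whose replicates lay far apart. Replicates differed at least 2-fold on FPKM + 1 for 68 members in bud (28.9%, against 21.1% of the 15996 models that reached 5 FPKM in any library). They did so for 43 members in root (18.3%, against 11.3% of those models), 29 in labellum (12.3%, against 4.77%) and 3 in petal (1.28%, against 1.79%). In stem there were 2 (0.851%, against 0.644%) and in leaf 6 (2.55%, against 0.519%).

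The margin by which members passed the rule varied widely. The ratio of the lowest root, labellum or petal library to the highest stem or leaf library had a median of 7.92 and reached 285. It was under 8 for 118 members, at least 8 for 117, at least 20 for 39 and at least 100 for 4. In 25 members every stem and leaf library was under 1 FPKM, and in 85 members every root, labellum and petal library was at or above 100 FPKM. Just inside the ratio limit were evm.model.Chr04.1101-gene (ratio 4.01), evm.model.Chr11.1514-gene (4.03) and evm.model.Chr06.2424-gene (4.05). Just outside it were evm.model.Chr17.1861-gene (3.97), evm.model.Chr17.1655-gene (3.96) and evm.model.Chr07.863-gene (3.92). At the level limit, evm.model.Chr18.2095-gene (5.02 FPKM), evm.model.Chr03.465-gene (5.23 FPKM) and evm.model.Chr09.2492-gene (5.52 FPKM) were inside. There, evm.model.Chr19.1326-gene (4.99 FPKM), evm.model.Chr09.445-gene (4.93 FPKM) and evm.model.Chr11.901-gene (4.88 FPKM) were outside.

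The widest gap belonged to evm.model.Chr17.1173-gene (chromosome 17, coding length 447 bp). It had 105.8 and 34.9 FPKM in bud, 161 and 212 in root, 178 and 89.0 in labellum, and 139 and 121 in petal, against 0.312 and 0.165 FPKM in stem and 0 and 0.286 FPKM in leaf. The 4 stem and leaf libraries together held 10 counts of this model, so its ratio rests on few counts. The bud libraries fell on either side of the lowest labellum library.

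The next, evm.model.Chr01.834-gene (chromosome 1, 1137 bp), was highest in root. Its levels were 8.08 and 6.41 FPKM in bud, 82.6 and 82.3 in root, 22.6 and 21.3 in labellum, 32.5 and 27.2 in petal, 0 and 0.0647 in stem and 0.0824 and 0.0281 in leaf. Here bud lay below all root, labellum and petal libraries and above all stem and leaf libraries, which held 6 counts in all.

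Petal led in evm.model.Chr19.781-gene (chromosome 19, 846 bp). It had 95.4 and 141 FPKM in bud, 158 and 267 in root, 277 and 183 in labellum, 543 and 582 in petal, 0.618 and 0.826 in stem, and 0.443 and 0.905 in leaf. Root led in evm.model.Chr16.602-gene (chromosome 16, 1167 bp), with 33.1 and 31.8 FPKM in bud, 365 and 554 in root, 192 and 106 in labellum, 80.6 and 111 in petal, 0.209 and 0.568 in stem, and 0.107 and 0.0547 in leaf. In both, the 2 bud libraries were again below every root, labellum and petal library.

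Labellum led in evm.model.Chr01.816-gene (chromosome 1, 957 bp). Its levels were 134 and 72.6 FPKM in bud, 44.9 and 59.5 in root, 650 and 622 in labellum, 351 and 272 in petal, 0.182 and 0.461 in stem, and at most 0.130 in leaf. In this model bud exceeded root in all libraries. A flatter profile was that of evm.model.Chr02.64-gene (chromosome 2, 1965 bp), with 16.1 and 11.3 FPKM in bud, 23.4 and 15.3 in root, 15.7 and 12.1 in labellum, 13.3 and 12.5 in petal, and at most 0.150 FPKM in stem and leaf.

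**Figure D2:**
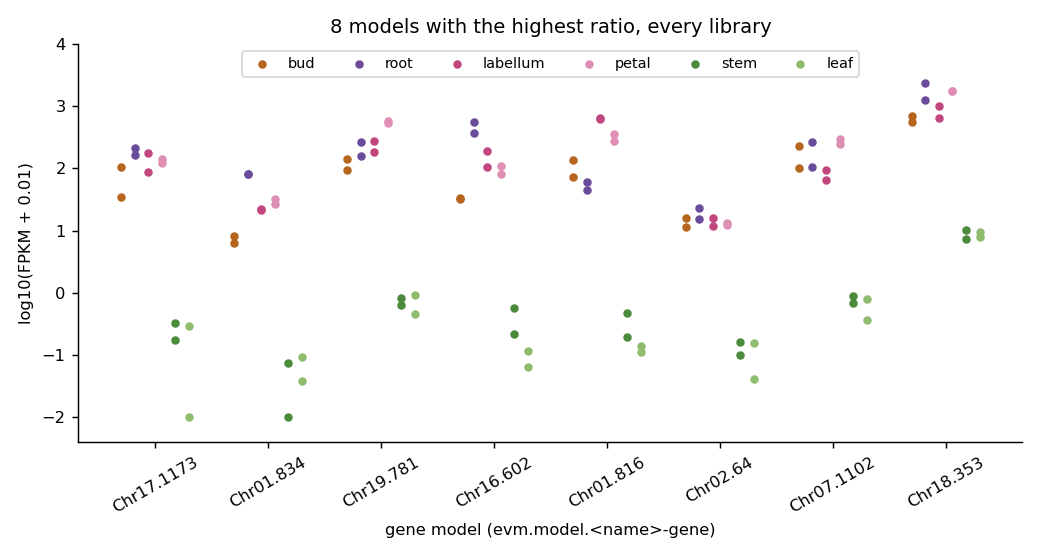
Each point is 1 library of 1 of the 8 models with the highest ratio, on the scale log10(FPKM + 0.01), with tissues side by side for each model. In all 8 the bud libraries lie above the stem and leaf libraries, while the order of bud, root, labellum and petal differs from model to model.

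The most abundant members were short models that were highest in labellum and petal. The first was evm.model.Chr16.202-gene (chromosome 16, 225 bp), with 1856 and 2834 FPKM in bud, 1932 and 3317 in root, 8105 and 6115 in labellum, and 9424 and 7856 in petal. Its stem and leaf values were between 47.5 and 76.6 FPKM, so a model that is low here by the rule was still moderately abundant. The same held for evm.model.Chr07.1060-gene (chromosome 7, 363 bp), with 4136 and 2049 FPKM in bud, 2009 and 2018 in root, 4804 and 5803 in labellum, 5810 and 4814 in petal, 269 and 260 in stem, and 317 and 311 in leaf. Among the rest, evm.model.Chr18.2055-gene (306 bp) averaged 3909 ± 1590.0 FPKM over the 6 root, labellum and petal libraries, evm.model.Chr16.36-gene (333 bp) 2989 ± 1127, and evm.model.Chr05.1171-gene (498 bp) 2684 ± 1135 (SD over 6 libraries of 3 tissues). In each of these, all 4 labellum and petal libraries exceeded both bud libraries.

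Bud was higher than stem and leaf for nearly all members. Of the 235, 229 (97.4%) were called higher in bud than in stem and leaf, where 26.2% of all 19123 tested models were called higher. Calls needed a change of at least 2-fold and an adjusted p under 0.05 (Benjamini-Hochberg), by edgeR's quasi-likelihood test on the counts of all 12 libraries. The spread of each model is shared over all tissues, so p-values and standard errors do not measure that of bud alone. On FPKM + 1, bud replicates differed at least 2-fold for 28.9% of members, those of stem for 0.851% and those of leaf for 2.55%. The median log2 fold change was 3.91 over the members and 0.04 over all tested models. Both bud libraries lay above all 4 stem and leaf libraries in 223 members (94.9%), against 28.5% of all tested models, and 222 of these were among the 229. No member was called lower, against 22% of all tested models, and none was lower at an unadjusted p under 0.05 by edgeR, DESeq2 or limma (0 by each). The rule had chosen the stem and leaf side of this comparison to be low, while the bud libraries had no part in it. The share of all tested models lower at an unadjusted p was not computed, so nothing is read from the 0 counts.

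The rule was also applied to 1 replicate number, with values read in the other. The other libraries come from the same tissues, so their levels still follow the choice. Applied to the replicate 1 libraries alone, the rule chose 322 models. For 319 of these, root, labellum and petal also lay above stem and leaf in replicate 2. In the replicate 2 libraries, bud exceeded both stem and leaf for 312 of the 322 (96.9%, against 41.0% of the 15585 models that reached 5 FPKM there). Of the same 322, 187 (58.1%) had bud below root, labellum and petal in replicate 2, against 18.0% of those 15585 models. Chosen with replicate 2, 304 models resulted, of which 293 (96.4%) had bud above stem and leaf in replicate 1, against 38.0% of 15544 models. Of these 304, 176 (57.9%) had bud below root, labellum and petal in replicate 1, where the share of all was 29.6%. This description was chosen after seeing the data. The models in the shares of all were not chosen by the rule, so no support is drawn from the differences.

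Among the largest differences was that of evm.model.Chr01.816-gene, whose bud values given above averaged 103 ± 43.6 FPKM, against 0.218 ± 0.165 FPKM in stem and leaf (SD, n = 2 and 4). Its log2 fold change was 9.22 ± 0.39 (SE), or 8.61 without bud replicate 1, with an adjusted p of 1.27e-07 (edgeR quasi-likelihood test). For evm.model.Chr12.492-gene (chromosome 12, 2505 bp) the log2 fold change was 8.98 ± 0.34, with an adjusted p of 8.46e-08 by the same edgeR test. In evm.model.Chr17.1173-gene it was 8.69 ± 0.65, and it was 10.57 without leaf replicate 2, 7.56 without bud replicate 1 and 9.32 without bud replicate 2. In evm.model.Chr07.1101-gene (chromosome 7, 423 bp), with 138 and 1016 FPKM in bud, it was 8.51 ± 0.87. That value was 6.58 without bud replicate 2, 9.30 without bud replicate 1 and 9.18 without stem replicate 2.

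There were 6 members without a call against stem and leaf, of which evm.model.Chr12.161-gene and evm.model.Chr14.4-gene fall outside the naming rule and were picked after their values were seen. In evm.model.Chr08.415-gene (chromosome 8, 261 bp) bud had 0.281 and 0.503 FPKM, which are 2 and 4 counts. The same model had 10.3 and 25.4 FPKM in root, 38.1 and 9.14 in labellum, 57.1 and 65.7 in petal, 0.267 and 1.13 in stem, and 1.43 and 1.59 in leaf. Bud overlapped with stem there and lay below leaf. In evm.model.Chr17.1423-gene (chromosome 17, 2721 bp) bud had 8.80 and 13.0 FPKM, below all 4 stem and leaf libraries, which ran between 13.7 and 18.8 FPKM, while root reached 236 and 242 FPKM. It was the only member (0.426%) with both bud libraries below all 4 stem and leaf libraries. Of all tested models, which were not chosen to be low in stem and leaf, 34.3% had this. The models evm.model.Chr08.415-gene and evm.model.Chr17.1423-gene are the 2 members in which both bud libraries were at or below the highest stem or leaf library. Their log2 fold changes in bud against stem and leaf were -1.18 and -0.40, with adjusted p of 0.271 and 0.195 by edgeR. The others were evm.model.Chr15.1674-gene, evm.model.Chr12.318-gene, evm.model.Chr12.161-gene and evm.model.Chr14.4-gene, with log2 fold changes of 0.36, 0.86, 0.79 and 1.19. Of these, evm.model.Chr12.161-gene had an adjusted p of 0.00251 by edgeR and missed only the 2-fold limit.

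Against labellum and petal, bud was lower for many members and higher for very few. Called lower in bud were 124 members (52.8%), against 6.19% of all tested models, and called higher were 2 (0.851%), against 12.6%. The median log2 fold change was -1.15 over the members and 0.03 over all tested models. Both bud libraries lay below all 4 labellum and petal libraries in 140 members (59.6%), against 11.6% of all tested models, and 115 of these were among the 124. In this comparison the rule had chosen the labellum and petal side to be high. Of the 229 members that were higher in bud than in stem and leaf, 118 were also lower than in labellum and petal, 109 were not called against them and 2 were higher.

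The 4 members with the largest drop in bud against labellum and petal differed in how they behaved in root. In evm.model.Chr08.415-gene the log2 fold change was -6.66 ± 0.92 (SE; -5.99 without labellum replicate 1), with bud near 0 as given above. In evm.model.Chr16.1580-gene (chromosome 16, 1170 bp) it was -3.98 ± 0.49 (-4.74 without bud replicate 1). This model had 3.60 and 1.66 FPKM in bud, 205 and 338 in root, 57.1 and 46.0 in labellum, and 31.3 and 25.9 in petal, against at most 1.55 FPKM in stem and leaf, and thus was highest in root. In evm.model.Chr12.318-gene (chromosome 12, 249 bp) the fold was -3.84 ± 0.45 (-4.63 without bud replicate 1), with 27.6 and 12.5 FPKM in bud and 157 to 382 FPKM in labellum and petal. In evm.model.Chr10.725-gene (chromosome 10, 1209 bp) it was -3.82 ± 0.58 (-3.15 without bud replicate 1 and -5.13 without bud replicate 2). There bud (4.82 and 21.3 FPKM) lay below labellum and petal (113 to 223 FPKM) and overlapped root (17.1 and 41.8 FPKM). Adjusted p values of the 4 were between 0.0003 and 0.00124 (edgeR quasi-likelihood test).

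The 2 members that were higher in bud than in labellum and petal were also higher in bud than in root. In evm.model.Chr12.492-gene bud had 135 and 116 FPKM, while root had 14.2 and 15.2, labellum 8.88 and 16.6, petal 35.7 and 36.6, stem 0.682 and 0.426, and leaf 0.187 and 0.0892 FPKM. Bud was the highest tissue, at 3.16 times the highest library of the others even in its lower library. Its log2 fold change in bud against labellum and petal was 2.42 ± 0.26 (SE), with an adjusted p of 0.000191 by edgeR. In evm.model.Chr01.71-gene (chromosome 1, 1086 bp) bud had 475 and 359 FPKM, root 169 and 120, labellum 120 and 167, petal 212 and 179, stem 4.40 and 5.29, and leaf 6.12 and 7.55 FPKM. The log2 fold change was 1.20 ± 0.22 with an adjusted p of 0.00333 by edgeR, and 0.89 without bud replicate 1, which is under the 2-fold limit. Without bud replicate 2, 9 members were called higher in place of 2.

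Against root, bud was lower for 108 members (46%), where 22.2% of all tested models were lower, and higher for 17 (7.23%), where 29.8% were higher. The median log2 fold change was -0.99 over the members and 0.25 over all tested models. Here the rule had chosen the root side to be high. Without root replicate 1 the number higher was 11, and it was 9 with the trend of each library with coding length removed. In evm.model.Chr18.2328-gene (chromosome 18, 1194 bp) bud had 519 and 279 FPKM, root 14.1 and 33.4, labellum 187 and 260, petal 221 and 178, stem 1.72 and 2.19, and leaf 0.758 and 1.42 FPKM. Bud lay above every other library, and its log2 fold change against root was 4.29 ± 0.50 (SE), or 4.99 without root replicate 2 and 3.69 without bud replicate 1. The others named as higher than root were evm.model.Chr12.492-gene, evm.model.Chr18.2095-gene and evm.model.Chr11.1711-gene, with log2 fold changes of 3.26 ± 0.34, 2.88 ± 0.35 and 2.38 ± 0.32. Lower than root by the largest folds were evm.model.Chr16.1580-gene (-6.51 ± 0.57, or -7.27 without bud replicate 1) and evm.model.Chr08.415-gene (-5.24 ± 0.93, or -4.50 without root replicate 2). Next came evm.model.Chr14.736-gene (-5.17 ± 0.59) and evm.model.Chr07.161-gene (-5.04 ± 0.54). For the first of these the fold was -4.52 without root replicate 2 and -5.96 without bud replicate 2. For the second it was -5.69 without root replicate 1 and -3.83 without root replicate 2. Adjusted p values of the named models were between 9.67e-06 and 0.000831 (edgeR quasi-likelihood test).

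**Figure D3:**
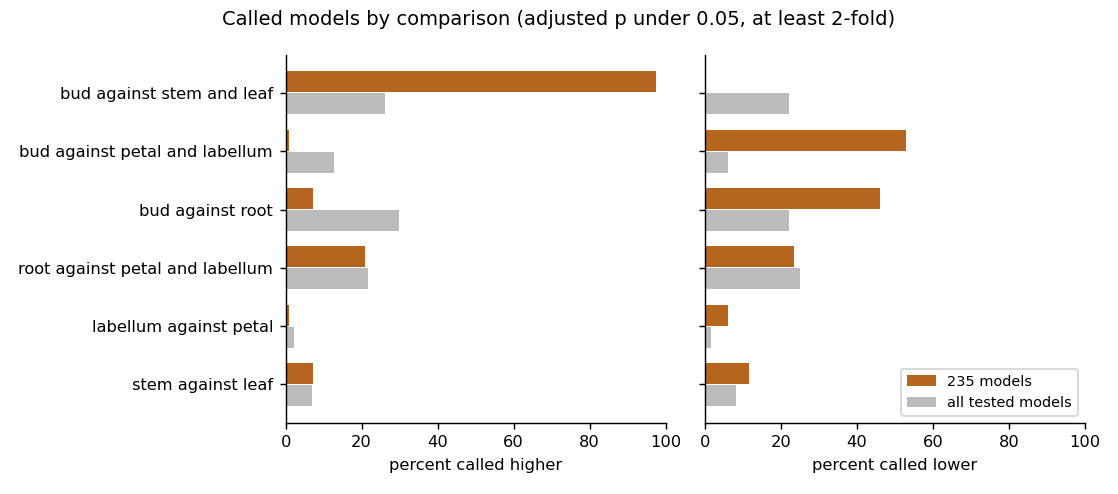
Bars give the percent of the 235 models (brown) and of all 19123 tested models (grey) that were called higher (left) or lower (right) in the first-named tissue of each comparison. The shares of the 235 models are far from those of all models in the 3 bud comparisons and close to them for root against petal and labellum. The rule had set the side compared with bud low or high, and had set no direction between root and petal with labellum.

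Where bud fell can be put on one scale, with the mean of the stem and leaf libraries at 0 and the mean of the root, labellum and petal libraries at 1, on log2(FPKM + 1). The median position was 0.73 in each bud library (0.731 in replicate 1 and 0.725 in replicate 2). The quartiles were 0.596 and 0.922 in replicate 1, and 0.538 and 0.877 in replicate 2. With the 2 libraries averaged, 201 members (85.5%) were past 0.5, that is nearer to root, labellum and petal on this log scale. In FPKM itself, the median of the member means in bud (54.7) was nearer to those of stem (4.08) and leaf (4.04). The medians of root, labellum and petal were 142, 112 and 124 FPKM. In 25 the mean position was over 1, and in 2 it was under 0.

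By ranges of libraries, 95 members (40.4%) had both bud libraries between the stem and leaf libraries and the others, against 1.27% of all tested models. That class needs a gap between the 2 sets of organs, which the rule gave to every member and which other models need not have, so nothing is read from the difference. In 61 members (26.0%) both were at or above the lowest root, labellum or petal library, against 73% of all tested models. In 2 members (0.851%) both were at or below the highest stem or leaf library, against 55.8% of all tested models. These shares, too, depend on the gap that the rule gave, so nothing is read from their differences either. In the other 77 the bud libraries fell in different classes, so the class rests on 1 library. With bud replicate 1 alone 96 members were in the upper class and 7 in the lower, and with bud replicate 2 alone 97 and 7.

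**Figure D4:**
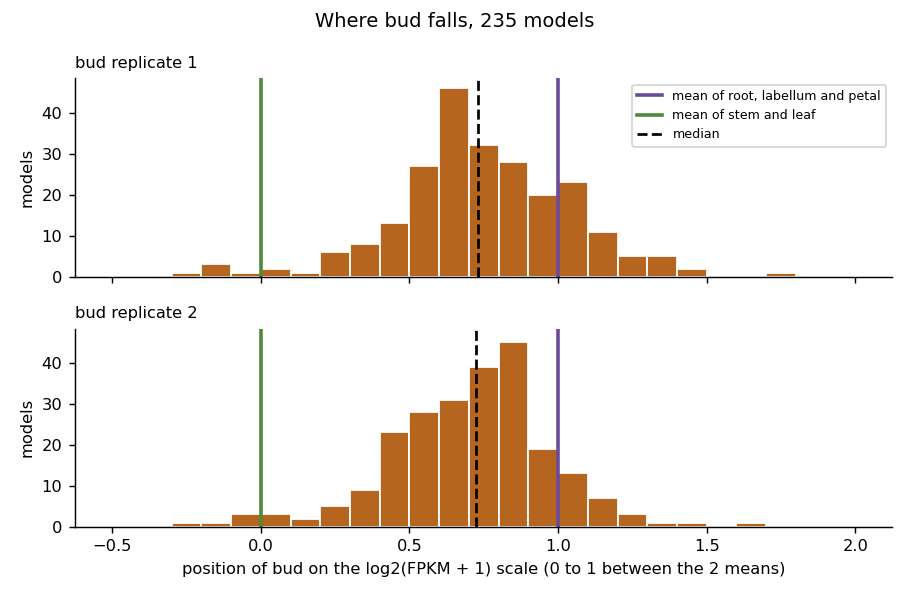
Histograms of the position of bud for the 235 models, 1 panel per bud library, on a scale of log2(FPKM + 1) where 0 (green line) is the mean of stem and leaf and 1 (purple line) the mean of root, labellum and petal. The dashed medians are at 0.731 and 0.725, and a small number of models lie under 0 or well over 1.

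In the opposite set, too, the middle model had bud nearer to root, labellum and petal on the log scale. The mirrored rule, with stem and leaf high and root, labellum and petal low, chose 365 models. On the same scale the median bud position in them was 0.75 (0.771 in replicate 1 and 0.713 in replicate 2). Of the 365, 304 (83.3%) were past 0.5, and 64 were over 1. The difference in position between the 2 sets was not tested.

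Bud replicates disagreed strongly for a few short members. In evm.model.Chr17.1606-gene (chromosome 17, 225 bp) bud replicate 1 had 123 FPKM (755 counts) and replicate 2 had 0 counts, while root had 196 and 265 FPKM. In evm.model.Chr18.461-gene (207 bp) the bud values were 93.8 and 3.01 FPKM, and in evm.model.Chr16.1310-gene (258 bp) they were 0.142 and 25.2 FPKM. Neither bud library was the higher one throughout. Replicates differed at least 4-fold in bud for 17 members, in root for 2 and in the other tissues for none (0), on FPKM + 1. The shares of all models at this limit were not computed, so no trait of the members is read from these counts.

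Between root and the pair of petal and labellum, members differed in each direction in similar numbers. Called higher in root than in petal and labellum were 49 members (20.9%, against 21.7% of all tested models), and lower were 55 (23.4%, against 25.1%). These shares are near the background. The rule had used the root, petal and labellum values and had set no direction between them, so these calls are given as a description. The median log2 fold change was -0.09 over the members and -0.12 over all tested models. When libraries were scaled by total counts and not by TMM, the medians were 0.20 and 0.11, so the sign of the median rests on the scaling. With the length trend removed, 75 members were higher and 40 lower. The shares of all tested models with that step were not computed, so no lean of the members is read from it. By mean FPKM, root was the highest of the 3 organs for 115 members (48.9%), petal for 80 (34.0%) and labellum for 40 (17.0%). FPKM scales by library totals, so this ranking rests on the scaling too. The shares of all models were not computed, so nothing is read from it.

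Among those higher in root, evm.model.Chr14.736-gene (chromosome 14, 243 bp) had 294 and 647 FPKM in root, against 29.9 and 13.1 in labellum and 22.1 and 24.5 in petal. Its log2 fold change was 4.10 ± 0.43 (SE), or 3.44 without root replicate 2. In evm.model.Chr07.161-gene (chromosome 7, 915 bp) root had 202 and 744 FPKM, against 29.8 and 24.4 in labellum and 19.8 and 29.2 in petal. The log2 fold change was 3.90 ± 0.39, and it was 2.69 without root replicate 2 and 4.55 without root replicate 1. The root libraries of both models differed by more than 2-fold from each other and still did not overlap with those of labellum and petal. Also named were evm.model.Chr17.1073-gene (3.54 ± 0.45) and evm.model.Chr17.2060-gene (3.24 ± 0.38).

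Among those lower in root, evm.model.Chr09.1974-gene (chromosome 9, 1185 bp) had 135 and 136 FPKM in root, against 816 and 872 in labellum and 1600 and 1641 in petal. Its log2 fold change was -3.40 ± 0.19 (SE), with an adjusted p of 5.95e-07 by edgeR, and its bud level (487 and 394 FPKM) lay between. In evm.model.Chr05.1052-gene (chromosome 5, 387 bp) root had 122 and 111 FPKM, against 917 and 921 in labellum and 955 and 1162 in petal, a log2 fold change of -3.37 ± 0.27. For evm.model.Chr18.2328-gene it was -3.48 ± 0.46 (-4.18 without root replicate 2) and for evm.model.Chr01.816-gene -3.39 ± 0.35. The adjusted p values of the named models were at most 0.000126 (edgeR quasi-likelihood test). Like the counts, they are given as a description, since the rule had used the root, petal and labellum values.

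**Figure D5:**
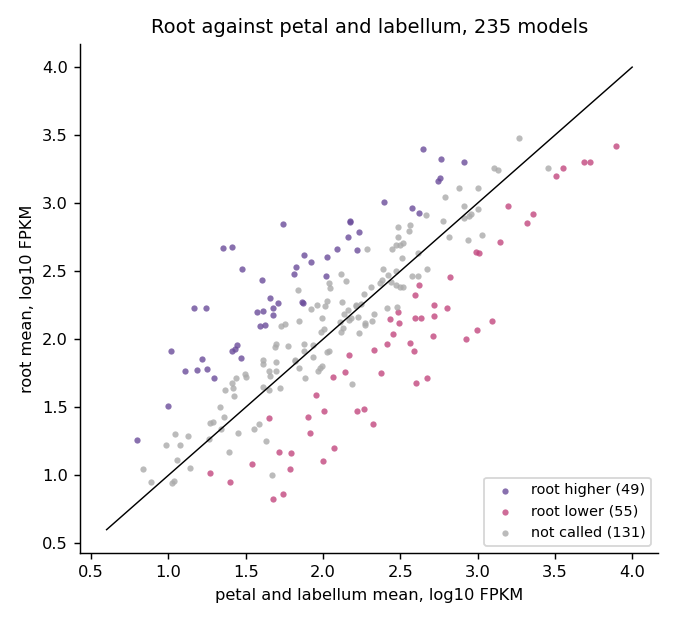
Each point is 1 of the 235 models, with the mean of the 2 root libraries on the vertical axis and the mean of the 4 petal and labellum libraries on the horizontal axis, both in log10 FPKM. The diagonal marks equal levels. The 49 models called higher in root lie above it and the 55 called lower lie below it, over the whole range of levels.

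In all, 229 of the 235 members were called higher in bud than in stem and leaf, the side that the rule had chosen low. Groups of this size thus hold mostly called members, so nothing is read from the shares called below. Of the 49 members higher in root, 48 were called higher in bud than in stem and leaf, with a median log2 fold change of 3.22 and a median bud level of 29.7 FPKM. Of the 55 members lower in root, 55 were called, with a median of 4.45 and a bud level of 106 FPKM. Of the 131 that were not called between root and petal with labellum, 126 were called, with a median of 3.57 and a bud level of 58.9 FPKM. The differences between these groups were not tested.

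Labellum and petal differed in few members, and petal was the higher one in most of those. The rule had used the labellum and petal values and had set no direction between them, so calls and p-values here are given as a description. Called lower in labellum were 14 members (5.96%, against 1.67% of all tested models), and called higher were 2 (0.851%, against 2.09%). Several of these calls lay close to the threshold, and the number lower moved between 2 (without either petal library) and 37 (without bud replicate 1) when single libraries were left out. Leaving out bud replicate 2 gave 36. Labellum replicates 1 and 2 left out in turn gave 7 and 3, either stem library 6 and either leaf library 9, while root libraries moved it by less than 1.5 times. In evm.model.Chr18.990-gene (chromosome 18, 423 bp) labellum had 190 and 133 FPKM, against 635 and 713 FPKM in petal. Its log2 fold change was -2.18 ± 0.22 (SE) with an adjusted p of 0.000982 by edgeR. In evm.model.Chr18.2316-gene (chromosome 18, also 423 bp) labellum had 150 and 128 FPKM, against 619 and 571 in petal, a log2 fold change of -2.21 ± 0.29 with an adjusted p of 0.00377 by edgeR. These calls held without each of the 12 libraries in turn.

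Other named members did not hold in this way. The folds of evm.model.Chr18.2009-gene (-2.29 ± 0.47, adjusted p = 0.0252 by edgeR) and evm.model.Chr14.79-gene (-2.10 ± 0.45, adjusted p = 0.0307) lost their calls without either petal or either labellum library. With those libraries left out in turn, the adjusted p values by edgeR reached 0.122 for the first and 0.198 for the second. Over the libraries that lost the first call when left out, its fold ran between -2.91 (without labellum replicate 2) and -1.86. Over the libraries that lost the second call when left out, its fold ran between -2.23 and -1.97. They also lost their calls without either leaf library, and the first without either stem library. In the other direction, evm.model.Chr09.2492-gene (chromosome 9, 960 bp) had 76.5 and 123 FPKM in labellum, against 7.76 and 13.3 in petal, a log2 fold change of 3.14 ± 0.59 with an adjusted p of 0.0181 by edgeR. The adjusted p was 0.164 and 0.114 without petal replicates 1 and 2 and 0.127 without labellum replicate 2. The second member higher in labellum, evm.model.Chr12.378-gene (1.23 ± 0.29, adjusted p = 0.0421 by edgeR), lost its call in 10 alternatives. Without either petal library no member (0) was called higher in labellum. The number was 1 without any one labellum, stem or leaf library and 3 without either bud library. At an unadjusted p under 0.05, with all libraries, 10 members were higher in labellum by edgeR, 10 by DESeq2 and 15 by limma on log2(FPKM + 1), while 62, 75 and 57 were lower by the same tools. The shares of all tested models at this threshold were not computed, so nothing is read from these counts.

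Between stem and leaf, some members differed in each direction, in shares near the background. Called higher in stem than in leaf were 17 members (7.23%, against 7.01% of all tested models), and called lower were 27 (11.5%, against 8.27%). The rule had put the same upper limit on the stem and leaf values and had set no direction between them. Since members could pass the filter on low counts through root, labellum and petal alone, these counts are given as a description. Without stem replicate 1, stem replicate 2 and leaf replicate 2 in turn, the number higher was 11, 9 and 9, and the number lower was 16 in each. By limma on log2(FPKM + 1) the split was 13 higher and 13 lower. In evm.model.Chr04.362-gene (chromosome 4, 915 bp) stem had 31.0 and 28.2 FPKM, against 1.91 and 3.14 FPKM in leaf, a log2 fold change of 3.36 ± 0.47 (SE). In evm.model.Chr11.1258-gene (chromosome 11, 561 bp) stem had 9.63 and 11.6 FPKM, against 0.556 and 0.910 in leaf, a log2 fold change of 3.66 ± 0.24. In evm.model.Chr19.35-gene (chromosome 19, 4308 bp, the longest member) stem had 3.54 and 3.31 FPKM, against 25.3 and 23.2 in leaf, and the log2 fold change was -3.01 ± 0.46. By edgeR the adjusted p values were 0.00104, 3.36e-05 and 0.00172, and these folds kept their direction without each library in turn. Like the counts, they are given as a description, since the rule had used the stem and leaf values.

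The other named members of this comparison held 26 to 148 counts over the 4 stem and leaf libraries, and by limma on log2(FPKM + 1) none of them was called. In evm.model.Chr05.1383-gene (stem higher, 4.79 ± 0.92) the fold was 3.88 without leaf replicate 1 and 7.66 without leaf replicate 2. For evm.model.Chr15.1736-gene (stem higher, 3.37 ± 0.88), evm.model.Chr18.464-gene (stem lower, -4.28 ± 1.25) and evm.model.Chr05.1363-gene (stem lower, -3.02 ± 0.81) the call was lost without any one stem or leaf library. The fold of the second ran from -6.33 without stem replicate 2 to -3.44 without stem replicate 1 (-3.61 without leaf replicate 2), and that of the third from -4.05 without stem replicate 2 to -2.43 without stem replicate 1. For evm.model.Chr18.464-gene the adjusted p by edgeR also passed the threshold without each labellum and each petal library. In evm.model.Chr11.1294-gene (stem lower, -2.43 ± 0.58) the call was lost without stem replicate 2 (-1.85) or leaf replicate 2 (-1.76), and the fold was -3.54 without stem replicate 1.

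The members were somewhat short. Their median coding length was 888 bp, against 1098 bp for the 15996 models that reached 5 FPKM in any library and 1107 bp for the 365 models of the opposite set. Of the 235, 70 (29.8%) were under 600 bp, against 20.5% of those 15996 models, and lengths ran from 201 to 4308 bp. The 61 members with bud in the upper class had a median of 708 bp, the 95 with bud between 1086 bp, and the 77 with bud libraries in different classes 807 bp. With each library's trend with coding length removed, 224 members were called higher in bud than in stem and leaf (229 without that step), and 132 were lower in bud than in labellum and petal (124 without it).

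Members lay on all 19 chromosomes and on no scaffold. Chromosome 18 held 29, which is 2.35% of its models that reached 5 FPKM, chromosome 16 held 20 (2.17%), and chromosome 19 held 7 (0.737%), the lowest share. A numbered neighbour that was also a member was found for 13 members (5.53%), in 6 runs. Members are 0.742% of all models. The share with such a neighbour that this would give was not computed, so nothing is read from it. The longest run had 3 models, evm.model.Chr18.2314-gene, evm.model.Chr18.2315-gene and evm.model.Chr18.2316-gene, each with a coding length of 423 bp. Including evm.model.Chr18.990-gene and evm.model.Chr07.1101-gene, 5 members (2.13%) had exactly this length, as did 0.188% of the 15996 models.

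The equal lengths did not go with equal levels. In evm.model.Chr18.2314-gene bud had 2.42 and 53.5 FPKM, root 105 and 146, labellum 8.85 and 6.11, and petal 56.2 and 86.0 FPKM. In evm.model.Chr18.2315-gene bud had 640 and 147 FPKM, root 384 and 600, labellum 159 and 235, and petal 384 and 488 FPKM. The bud libraries of these neighbours went in opposite directions. In evm.model.Chr18.2316-gene bud had 258 and 197 FPKM, and root 527 and 845, with labellum and petal as given above. On chromosome 5, evm.model.Chr05.1463-gene and evm.model.Chr05.1464-gene, both 429 bp, had 753 and 487 FPKM and 1016 and 341 FPKM in bud, with root, labellum and petal between 733 and 1985 FPKM. The remaining named run was evm.model.Chr06.220-gene and evm.model.Chr06.221-gene (903 and 846 bp), with 74.8 and 11.7 FPKM and 136 and 76.2 FPKM in bud. Values of neighbouring models of equal length are uncertain, since how reads with several matches were counted is not given in the sources used here.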

How the data were processed

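Messenger RNA of 6 tissues was measured by RNA-seq, with 2 libraries per tissue. RNA was extracted with a column kit and libraries were made with a SMARTER kit, per the labels' protocols. The authors deposited raw read counts per gene model, and FPKM values for the same 31672 models. A single length per model, taken from count, FPKM and library total, recovered all 224365 FPKM values above 0 with a largest deviation of 0.000845 bp in length. These lengths were multiples of 3 and are called coding lengths. The aligner and the counting rule are not given here. GRCm38 and mm10, both mouse builds, appear in the submitters' processing notes without a role, so the build behind the counts is unknown. Members were chosen on the deposited FPKM.

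The deposited counts went into edgeR 4.0.16 under R 4.3.3 (glmQLFTest, filterByExpr, TMM), with one mean per tissue, 12 libraries and 6 residual degrees of freedom; Benjamini-Hochberg adjustment ran over all 19123 tested models. Groups of several tissues weight the tissues equally, and differences between those tissues do not enter the spread. Standard errors were derived from the log2 fold change and its F statistic and are approximate at low counts. Alternatives were DESeq2 1.42.0, total counts, no filter, limma 3.58.1 on log2(FPKM + 1) and log2(FPKM + 0.1) for models of at least 1 FPKM in 2 libraries, removal of length trends, a replicate block and leaving out each library. Named models are those with the highest ratio (8), the highest level (5), the largest called folds without overlap (up to 4 per direction), extreme or discordant bud (3 each), nearest the limits, and in the longest runs. The members, lists and tests were chosen with earlier results of these data known.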

Additional observations from a re-analysis of the deposited data

How the results depend on the processing

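Under alternatives to the processing, 211 of 256 recomputed counts stayed within 1.5 times their value, and none of the named folds turned round (707 of 760 kept their call and 53 lost it). Without each library in turn, members called higher in bud than in stem and leaf numbered 223 to 229, and in bud against labellum and petal 110 to 142 were lower and 2 to 9 higher. Those lower in bud than in root numbered 92 to 127 (those higher, 11 to 22). With a ratio limit of 8 there were 117 members in place of 235, and without each library the rule chose 238 to 274. The set also depends on the scaling. With TMM scaling the rule chose 270 models, of which 231 were among the 235. With TPM, which scales each library to the same sum, it chose 207, of which 204 were among them. Of the bud classes, the upper held 96 to 97 and the lower 7 with 1 bud library, against 61 and 2 with both. Members higher in bud than in root were 11 and 10 by limma with pseudocounts of 1 and 0.1, and 9 with length trends removed, in place of 17. Members higher in root than in petal and labellum were 75 with length trends removed, in place of 49. The share of all tested models with that step was not computed. Members lower in labellum than in petal were 30 by DESeq2, 9 with total counts, 6 by limma with a pseudocount of 0.1 and 8 with length trends removed, in place of 14, and 2 to 37 without single libraries. Those higher in labellum were 1 by limma with a pseudocount of 0.1 and 1 with length trends removed, in place of 2, and 0 to 3 without single libraries. Members higher in stem than in leaf were 29 by DESeq2 and 26 by limma with a pseudocount of 0.1, in place of 17, and 9 to 23 without single libraries. Those lower in stem were 13 by limma with a pseudocount of 1, in place of 27, and 16 to 38 without single libraries. The cause of these moves was not tested. Total counts in place of TMM shifted the median over all tested models (log2) by -0.14 for bud against stem and leaf, 0.13 against petal and labellum, -0.16 against root, 0.23 for root against petal and labellum and 0.18 for stem against leaf.

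Whether the replicate numbers pair the libraries could not be settled, since each tissue gives 1 replicate difference. The correlation of these differences ran from -0.300 (labellum with bud) to 0.117 (petal with bud) over 15 pairs of tissues, and 1 was over 0.1. With the replicate number as a block, 228 members were called higher in bud than in stem and leaf, 120 lower than in labellum and petal, and 1 higher in labellum than in petal (2 without the block). Among named models the block ended the calls of evm.model.Chr12.378-gene, evm.model.Chr14.79-gene and evm.model.Chr18.464-gene, with adjusted p values of 0.0674, 0.0510 and 0.0560 by edgeR. Root replicate 2, the shallowest library, limits the precision of root levels, and few counts limit stem and leaf levels. A library left out leaves its tissue with 1 library, which is assumed to vary like the others.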
